A study of Mus musculus with 15 samples.

Results

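Checkpoint ligands are surface or secreted proteins that a cancer cell can use to hold back T cells, NK cells and macrophages. PD-L1 and PD-L2 bind PD-1 on T cells, CD80 binds both the costimulatory receptor CD28 and the inhibitory receptor CTLA-4, and CD155 and CD112 share the inhibitory receptor TIGIT and the activating receptor CD226. CD47 binds SIRPα on macrophages as a "do not eat me" signal, galectin-9 binds TIM-3, and the ectoenzymes CD39 and CD73 act in sequence on extracellular ATP to make adenosine, which damps T cells through its receptors. The 10 genes of these proteins were taken by symbol (*Cd274*, *Pdcd1lg2*, *Cd80*, *Cd276*, *Pvr*, *Nectin2*, *Cd47*, *Lgals9*, *Nt5e* and *Entpd1*), and all 10 are among the 35880 genes of the expression table. Of these, 9 passed the filter on low values and were tested. *Pdcd1lg2* did not pass.

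The cells were Lewis lung carcinoma (LL2/Luc2), a mouse lung cancer line grown in DMEM with serum, here without any other cell. The parental line (LL2 WT) was compared with *KEAP1* KO #1, #2 and #3, in which *Keap1* was targeted, and with *NRF2* KO, in which *Nfe2l2* was targeted. KEAP1 holds the transcription factor NRF2 at a low level, so the design sets lines with active NRF2 and a line without NRF2 beside the parent. Each knockout line grew from a single cell that had received a plasmid with Cas9, a guide RNA and GFP, so each is 1 clone, there is 1 *NRF2* KO clone, and the LL2 WT samples are not a clone that went through the same steps. Each line had 3 biologic replicates, 15 samples in all. The replicates are samples of the same clone, and p-values measure the spread between these samples and not between independently made clones.

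Expression is given as CPM, a gene's count scaled to a common total per sample. Reads per sample are unknown, and 0.1 CPM, which equals 3 reads at the average depth of the sequencing, served as the floor. Tests are from limma, run on the log2(CPM + 0.1) values of 14652 genes. Genes past both a Benjamini-Hochberg adjusted p of 0.05 and a difference of 1 on the log2 scale are termed called, and only these are said to rise or fall. Fold changes are on the log2(CPM + 0.1) scale, which understates the change of low genes. Errors are the SD over n = 3 samples.

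The targeted genes were checked first. Over the LL2 WT and *NRF2* KO samples *Keap1* was 21.6 to 24.8 CPM. It lay at 10.8 to 12.5 CPM in *KEAP1* KO #1 and at 3.78 to 7.29 CPM in *KEAP1* KO #2 and #3, and its difference in #1 was not called (log2 fold change −0.95, adjusted p = 0.00668, limma), though it was with CPM rescaled by the median ratio (−1.06). *Nfe2l2* had a mean of 186 CPM in LL2 WT against 119 CPM in *NRF2* KO (102 to 146 CPM), and an edited gene can still be transcribed. In the *KEAP1* KO clones, where it was not targeted, it was 87.0 to 103 CPM in #1 and 111 to 124 CPM in #2 and #3. Its level therefore does not set the *NRF2* KO line apart. *Nqo1*, an NRF2 target, lay at 26.1 to 36.5 CPM in LL2 WT, 253 to 545 CPM in the *KEAP1* KO clones and 8.55 to 10.96 CPM in *NRF2* KO. Of the defining immune markers, *Adgre1* was at 0 in all 15 samples and *Ptprc* reached at most 0.192 CPM. Summed over 11 immune markers, the level was 4.801 to 6.87 CPM in LL2 WT, 6.497 to 12.8, 10.5 to 23.9 and 15.1 to 39.1 CPM in *KEAP1* KO #1, #2 and #3, and 4.69 to 8.16 CPM in *NRF2* KO, and *Cd68*, a lysosomal glycoprotein, supplied most of it in *KEAP1* KO #2 and #3 (13.8 and 22.0 CPM on average). *Cd68* was called in those 2 clones (2.202 and 2.86, adjusted p = 0.00267 and 0.000406), and *Lyz2*, another myeloid gene, was called lower in both. The part of these markers in the results was not tested. The epithelial genes *Epcam* and *Cdh1* stayed at or under 0.0618 CPM in every sample, while *Krt18* averaged 296 to 534 CPM, and the lung epithelial genes *Nkx2-1*, *Sftpc* and *Sftpb* averaged under 1 CPM in every line, although *Sftpb* was called higher in each *KEAP1* KO clone (up to 0.682 CPM on average). Of 5 mesenchymal genes, *Vim* among them, 5 were called lower in each of #2 and #3, and 1 was called lower and 1 higher in #1. Of all tested genes, 7.75% and 7.34% were called lower in #2 and #3, and 3.99% lower and 4.55% higher in #1. In bulk RNA, fewer cells that express a gene and less of its RNA per cell cannot be told apart.

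The 3 genes that were called against LL2 WT in at least 1 line were *Nt5e*, *Cd80* and *Nectin2*, and sequence searched for NRF2 and other motifs is shown for each. The windows are the 250 bases upstream of 1 RefSeq transcript start on GRCm38.p6, and other annotated starts lie further upstream, so all 3 windows lie within the GENCODE gene. The windows of *Cd80*, whose start is 1503 bases downstream of the outermost RefSeq start, and of *Nectin2* hold 0 exon bases of their gene. All 250 bases of the *Nt5e* window are in an exon and are annotated as untranslated sequence. For *Cd80* (chr16:38458683-38458932, + strand) the capitals mark the AP-1 letters TGANTCA at −42 to −36. For *Nectin2* (chr7:19749574-19749823, − strand) they mark the antioxidant response element letters TGACNNNGC, read on the reverse strand, at −108 to −100. For *Nt5e* only 30 bases are shown (chr9:88327416-88327445, + strand, −193 to −164), and the capitals mark TGAGNNNGC on the reverse strand.
Cd80: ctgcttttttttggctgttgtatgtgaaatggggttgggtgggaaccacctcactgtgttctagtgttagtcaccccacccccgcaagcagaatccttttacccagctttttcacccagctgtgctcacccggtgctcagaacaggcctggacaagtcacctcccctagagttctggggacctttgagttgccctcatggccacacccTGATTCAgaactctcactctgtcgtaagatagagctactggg
Nectin2: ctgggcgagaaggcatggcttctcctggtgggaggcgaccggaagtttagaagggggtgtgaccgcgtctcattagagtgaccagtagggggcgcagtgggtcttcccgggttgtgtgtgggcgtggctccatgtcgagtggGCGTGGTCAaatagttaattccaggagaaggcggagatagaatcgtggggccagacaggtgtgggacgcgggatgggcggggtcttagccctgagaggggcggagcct
Nt5e: tctcggacctGCTCGCTCAccaggcgaaca

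Promoter windows were found for 9 of the 10 members, 11 windows in all. Both strands were searched for TGACNNNGC, TGAGNNNGC, TGANTCA, TTCNNNGAA (the gamma-activated site), a core of the interferon-stimulated response element and the NF-kB motif. TGAC and AP-1 letters can overlap. TGACNNNGC was found only in *Nectin2* among these windows, and 3338 of all 32851 promoters hold it. TGAGNNNGC was found in *Cd276*, *Nt5e*, *Lgals9*, *Pdcd1lg2* and *Entpd1*, and 14.4% of promoters hold it. AP-1 letters were found in *Cd80* alone (6.75% of promoters), and the windows of *Cd274* and *Cd47* held none of the 6 motifs. The core of the interferon-stimulated response element was found in *Lgals9* alone (2.98% of promoters) and the NF-kB motif in *Pdcd1lg2* alone (7.25%). The gamma-activated site was found in no window (7.02% of promoters). These are letter matches and not binding sites.

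*Nt5e* and *Cd80* rose in all 3 *KEAP1* KO clones, *Nt5e* to 25.9 to 35.2 times the LL2 WT mean and *Cd80* to 2.31 to 3.21 times, and *Nectin2* fell in #2 and #3. Counted over the members, 2 of 9 were called higher and 0 lower in *KEAP1* KO #1, where 4.55% of all tested genes were called higher and 3.99% lower. For #2 these counts were 2 higher and 1 lower, against 5.94% and 7.75% of all genes, and for #3 again 2 and 1, against 6.09% and 7.34%. In *NRF2* KO none of the 9 was called by limma (0.464% of all genes were), and 1 had an unadjusted p under 0.05 (11.2% of all genes). For the mean of the 3 clones against LL2 WT, 2 were called higher and 1 lower (5.81% and 6.87% of all genes), and against *NRF2* KO 2 were called higher and 0 lower (5.19% and 4.75%). *Cd80* and *Nt5e* were called higher in each of the 3 clones, and 2.86% of all genes were. Members whose samples all lay above those of LL2 WT numbered 3, 3 and 2 in #1, #2 and #3 (24.6%, 23.4% and 22.0% of all genes), and those whose samples all lay below numbered 0, 2 and 2 (12.4%, 18.6% and 18.0%). In *NRF2* KO these counts were 0 and 1 (8.68% and 4.53%). All comparisons with LL2 WT share its 3 samples. The median log2 fold change of the 9 members was −0.00, 0.67, 0.44 and −0.15 in *KEAP1* KO #1, #2, #3 and *NRF2* KO, beside 0.11, 0.03, 0.02 and 0.04 over all tested genes.

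**Figure D1:**
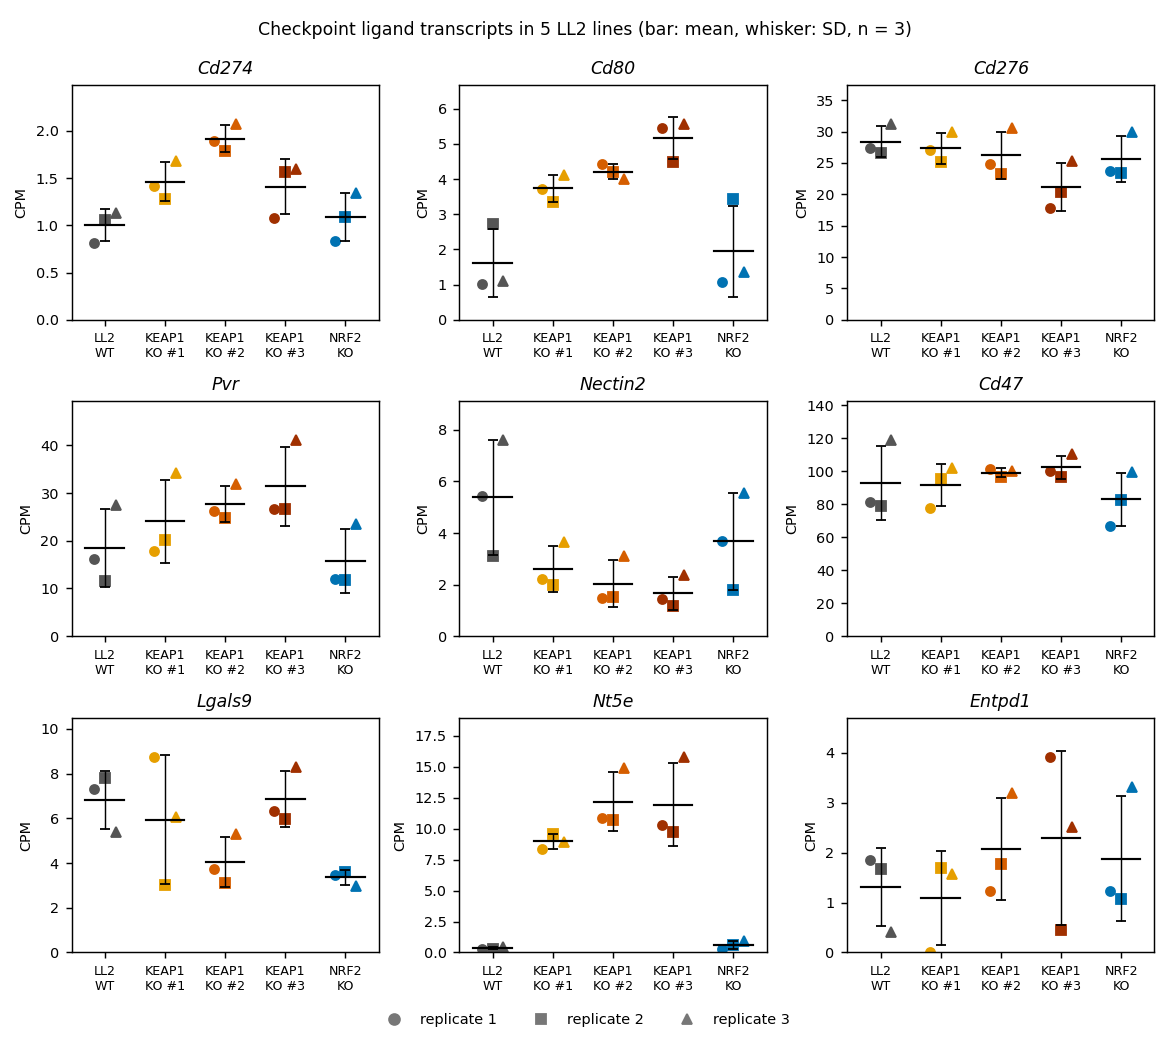
CPM (y axis, linear from 0) of each of the 9 tested checkpoint ligand genes in the 5 lines (x axis). Symbols are replicates 1 to 3, the bar is the mean and the whisker the SD (n = 3). *Nt5e* lay at 8.39 to 15.8 CPM in the *KEAP1* KO clones and under 1 CPM in LL2 WT and *NRF2* KO.

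**Figure D2:**
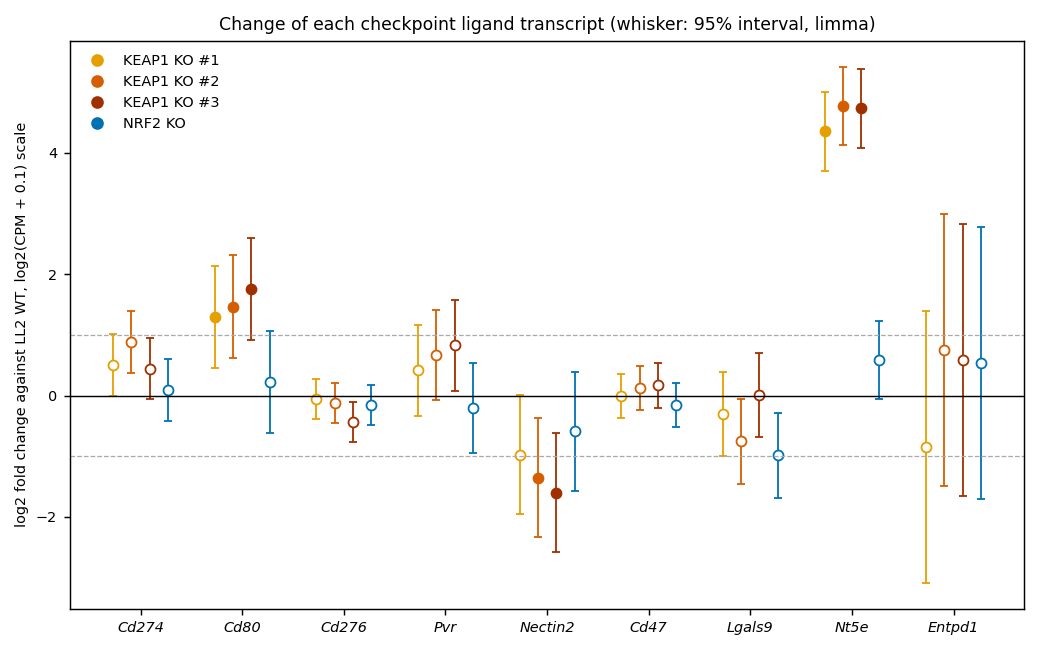
Log2 fold change against LL2 WT (y axis, log2(CPM + 0.1) scale) of the 9 tested genes (x axis) in the 4 knockout lines, with 95% intervals from limma. Filled points are called, and dashed lines mark the fold threshold. *Nt5e* lay at 4.35 to 4.78 in the *KEAP1* KO clones, and *Entpd1* had the widest intervals.

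*Cd274*, the gene of PD-L1, was low in all lines. It was 0.816, 1.06 and 1.14 CPM in the parental LL2 WT samples, 1.41, 1.28 and 1.68 CPM in *KEAP1* KO #1, 1.89, 1.79 and 2.07 CPM in #2, 1.07, 1.57 and 1.59 CPM in #3, and 0.836, 1.08 and 1.34 CPM in *NRF2* KO. All samples of #1 and #2 lay above every LL2 WT sample, and #3 overlapped it. Against LL2 WT, the log2 fold change was 0.50 (adjusted p = 0.141, limma), 0.88 (adjusted p = 0.0125) and 0.44 (adjusted p = 0.169) in #1, #2 and #3 (standard error 0.24) and 0.10 (adjusted p = 0.918) in *NRF2* KO. Only that of #2 passed the adjusted p, at a fold under the threshold. The clone mean was 0.61 above LL2 WT (95% interval 0.19 to 1.02, adjusted p = 0.0246), and 0.51 above *NRF2* KO (adjusted p = 0.0666). With quantile normalization the change in #2 was 1.07 (adjusted p = 0.00154) and was called.

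*Cd274* lies at chr19:29367455-29388095 (+ strand), and 12.06% of its 31-base words occur in an antisense gene, so part of its signal could not be assigned with certainty. Its neighbour *Pdcd1lg2*, the gene of PD-L2 at chr19:29410919-29471161, was listed at 0 in 14 of 15 samples and at 0.0224 CPM in *KEAP1* KO #1 replicate 2, under the floor. No difference of *Pdcd1lg2* between lines was detectable at this depth.

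*Cd80* encodes a B7 protein. It was 1.02, 2.73 and 1.102 CPM in the parental LL2 WT samples, 3.73, 3.35 and 4.13 CPM in *KEAP1* KO #1, 4.44, 4.21 and 3.999 CPM in #2, and 5.47, 4.49 and 5.57 CPM in #3. The second LL2 WT sample stood apart from the other two, and even so all 9 samples of the clones lay above it. *NRF2* KO had 1.07, 3.44 and 1.35 CPM, again with replicate 2 the highest, and that sample lay within the range of *KEAP1* KO #1. *Havcr2* was also highest in replicate 2 of both LL2 WT and *NRF2* KO (2.22 and 3.47 CPM), while *Nectin2* (3.11 and 1.78 CPM) and *Pvr* (11.6 and 11.9 CPM) were lowest there. The share of all genes with either pattern was not counted. By limma, the log2 fold change of *Cd80* was 1.29 (standard error 0.39, adjusted p = 0.0303, limma), 1.47 (adjusted p = 0.0122) and 1.75 (adjusted p = 0.00429) in #1, #2 and #3, and 0.22 (adjusted p = 0.882) in *NRF2* KO.

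The rise of *Cd80* in *KEAP1* KO #1 was called only narrowly. It was lost without LL2 WT replicate 1 (log2 fold change 1.05, adjusted p = 0.111, limma) or 3 (1.11, 0.103), and without replicate 1 (1.29, 0.0697), 2 (1.37, 0.0667) or 3 (1.22, 0.0796) of the clone. It was also lost with no filter on low values (adjusted p = 0.0566, limma), with only the lines compared in the model (0.0667) and, by its fold, at a pseudocount of 1 CPM (0.91). In #2 it was lost without LL2 WT replicate 1 (1.23, 0.0550), and in #3 it kept its call without any single sample. With replicates 1 and 2 of every line alone, a choice made after seeing the data, none of the 3 was called (adjusted p = 0.182, 0.0810 and 0.0514), at 1.03, 1.32 and 1.51 on the log2 scale. By single replicate number, the differences from LL2 WT in #1, #2 and #3 were 1.78, 2.02 and 2.32 in replicate 1. They were 0.29, 0.61 and 0.70 in replicate 2 and 1.81, 1.77 and 2.24 in replicate 3. These are single values with no test. Against *NRF2* KO the clone mean was 1.28 higher (adjusted p = 0.00942, limma), and this was lost without *NRF2* KO replicate 1 (0.96, 0.0770) or 3 (1.12, 0.0561) and at a pseudocount of 1 CPM (0.94). *Cd80* lies at chr16:38455561-38496335 (+ strand).

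*Cd276*, the gene of B7-H3, was 27.4, 26.6 and 31.2 CPM in LL2 WT against 17.8, 20.4 and 25.3 CPM in *KEAP1* KO #3, whose samples all lay below. It was 25.1 to 29.9 CPM in #1, 23.3 to 30.5 CPM in #2 and 23.3 to 29.9 CPM in *NRF2* KO, which overlapped LL2 WT. The log2 fold change in #3 was −0.44 (95% interval −0.76 to −0.11, adjusted p = 0.0438, limma), under the fold threshold. In #1, #2 and *NRF2* KO it was −0.06, −0.12 and −0.15 (adjusted p = 0.826, 0.567 and 0.775). *Cd276* lies at chr9:58524298-58555437 (− strand), and 10.5% of its 31-base words occur in a gene on the other strand.

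*Nectin2*, the gene of CD112, fell. It was 5.45, 3.11 and 7.59 CPM in the parental LL2 WT samples, 2.22, 1.98 and 3.64 CPM in *KEAP1* KO #1, 1.48, 1.53 and 3.095 CPM in #2, 1.46, 1.15 and 2.39 CPM in #3, and 3.68, 1.78 and 5.56 CPM in *NRF2* KO. Every sample of #2 and #3 lay below every LL2 WT sample, while #1 and *NRF2* KO overlapped LL2 WT. On the log2 scale, the difference was −1.35 (standard error 0.45, adjusted p = 0.0370, limma) in #2 and −1.61 (adjusted p = 0.0167) in #3. In #1 it was −0.97 (95% interval −1.96 to 0.01, adjusted p = 0.140), and in *NRF2* KO it was −0.59 (−1.57 to 0.39, adjusted p = 0.699).

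The spread of *Nectin2* was wide, and its calls were lost without any of 4 of the 6 samples compared in #2 and in #3. In #2 the call was lost without LL2 WT replicate 1 (log2 fold change −1.299, adjusted p = 0.0930, limma) or 3 (−1.06, 0.137) and without replicate 1 (−1.18, 0.125) or 2 (−1.20, 0.121) of the clone. In #2 it was also lost with no filter on low values (adjusted p = 0.0709, limma) and with only the lines compared in the model (0.0545). In #3 it was lost without LL2 WT replicate 1 (−1.55, 0.0508) or 3 (−1.32, 0.0684) and without replicate 1 (−1.55, 0.0529) or 2 (−1.39, 0.0707) of the clone. Part of the spread was shared between lines, as replicate 3 exceeded the mean of replicates 1 and 2 by 0.77 to 1.09. With replicate number in the model, the standard error was 0.20. The calls in #2 and #3 then held (adjusted p = 0.000173 and 5.04e-05, limma). The part of this offset in the losses was not tested. The clone mean was −1.31 from LL2 WT (adjusted p = 0.0145), and lost its call without LL2 WT replicate 1 (−1.26, 0.0575) or 3 (−1.02, 0.0935). It was −0.72 from *NRF2* KO (adjusted p = 0.178), and called without *NRF2* KO replicate 2 (−1.15, 0.0479). *Nectin2* lies at chr7:19716644-19750483 (− strand), and 3.15% of its 31-base words occur in an antisense gene. Whether the counting used strand is not given in the sources used here, so reads of the pair cannot be told apart with certainty.

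*Pvr*, the gene of CD155, was 16.1, 11.6 and 27.5 CPM in the parental LL2 WT samples, 17.9, 20.1 and 34.1 CPM in *KEAP1* KO #1, 26.3, 24.9 and 31.9 CPM in #2, 26.7, 26.6 and 41.0 CPM in #3, and 11.97, 11.9 and 23.4 CPM in *NRF2* KO. Replicate 3 was the highest of its line in all 5 lines, and the samples of every clone overlapped those of LL2 WT. On the log2 scale, the change was 0.42 (adjusted p = 0.418, limma), 0.67 (adjusted p = 0.159) and 0.83 (adjusted p = 0.0852) in #1, #2 and #3, and −0.21 (adjusted p = 0.875) in *NRF2* KO. None is called, and the intervals reached 1.16, 1.42 and 1.58 in the clones. Within each replicate number, all 9 differences of a clone from LL2 WT were above 0 (0.15 to 1.19). With replicate number in the model, adjusted p was 0.0440, 0.00324 and 0.000832 (limma) in #1, #2 and #3. The folds were the same and stayed under the threshold. Without LL2 WT replicate 3, *Pvr* was called in #2 (1.00, adjusted p = 0.0456) and in #3 (1.16, 0.0233). The clone mean exceeded *NRF2* KO by 0.85 (adjusted p = 0.0421), which is under the fold threshold, and without *NRF2* KO replicate 3 it was called (1.17, 0.0143). *Pvr* lies at chr7:19903578-19921160 (− strand), on the same chromosome as *Nectin2*.

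*Cd47* had the highest level of all members and differed little. It was 81.2, 78.7 and 119 CPM in LL2 WT, 77.5 to 102 CPM in *KEAP1* KO #1, 96.2 to 101 CPM in #2, 96.8 to 110 CPM in #3, and 67.0 to 99.4 CPM in *NRF2* KO. All lines overlapped. The log2 fold changes were −0.00, 0.12, 0.17 and −0.15 (adjusted p = 0.998, 0.621, 0.485 and 0.795, limma), and their 95% intervals lay between −0.52 and 0.53. The sign for #2 turned with quantile normalization (−0.0084). *Cd47* lies at chr16:49800533-49915010 (+ strand).

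*Lgals9*, the gene of galectin-9, was 7.31, 7.80 and 5.37 CPM in LL2 WT against 3.47, 3.61 and 3.00 CPM in *NRF2* KO, so all *NRF2* KO samples lay below. Against LL2 WT, the log2 fold change was −0.99 (95% interval −1.68 to −0.29), and it did not pass (adjusted p = 0.253, limma). *Lgals9* was 8.76, 3.00 and 6.05 CPM in *KEAP1* KO #1, 3.75, 3.09 and 5.30 CPM in #2, and 6.34, 5.96 and 8.28 CPM in #3, where it differed from LL2 WT by −0.31, −0.76 and 0.01 on the log2 scale (adjusted p = 0.529, 0.0898 and 0.986, limma). The #2 samples lay below LL2 WT and the other clones overlapped it. *Lgals9* lies at chr11:78962974-78984946 (− strand).

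*Nt5e*, which encodes CD73, the enzyme that turns AMP into adenosine, rose most. Its level was 0.319, 0.296 and 0.424 CPM in the LL2 WT samples. It was 8.39, 9.61 and 8.91 CPM in *KEAP1* KO #1, 10.9, 10.7 and 14.9 CPM in #2, and 10.29, 9.76 and 15.8 CPM in #3. All 9 samples of the clones lay above every LL2 WT and *NRF2* KO sample. Its rise was 4.35 on the log2 scale (standard error 0.30, adjusted p = 7.24e-07, limma) in #1, 4.78 (adjusted p = 1.80e-07) in #2 and 4.73 (adjusted p = 1.89e-07) in #3, with 95% intervals from 3.71 at the lowest to 5.42 at the highest. Mean CPM was 25.9, 35.2 and 34.5 times that of LL2 WT. By size of the rise, *Nt5e* was number 30, 38 and 45 of 14652 genes.

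In *NRF2* KO, *Nt5e* was 0.310, 0.594 and 0.937 CPM, so 1 sample lay within the LL2 WT range and 2 lay above it. By limma, the log2 fold change was 0.59 with a 95% interval of −0.06 to 1.23 (adjusted p = 0.504, limma). The LL2 WT mean is equivalent to about 10.4 reads at the average depth, so the base of these ratios is thin. The mean of the 3 clones lay 4.03 above *NRF2* KO on the log2 scale (adjusted p = 7.61e-08), 17.99 times in mean CPM. *Nt5e* lies at chr9:88327197-88372092 on GRCm38 (+ strand), and 0.420% of its 31-base words also occur in another gene.

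*Entpd1*, the gene of CD39, which supplies AMP to CD73, was the least even member. It was 1.85, 1.67 and 0.410 CPM in the parental LL2 WT samples, 0, 1.70 and 1.58 CPM in *KEAP1* KO #1, 1.23, 1.78 and 3.202 CPM in #2, 3.92, 0.460 and 2.51 CPM in #3, and 1.23, 1.08 and 3.32 CPM in *NRF2* KO. All lines overlapped. The log2 fold changes of −0.85, 0.75, 0.58 and 0.54 had a standard error of 1.04 (adjusted p = 0.595 to 0.894, limma). Their 95% intervals ran from −3.09 at the lowest to 2.99 at the highest, so no difference in *Entpd1* was detectable while large ones remain possible. *Entpd1* lies at chr19:40612366-40741602 (+ strand).

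Among 16 other genes of the adenosine pathway, 8 were tested, and in each *KEAP1* KO clone 0 were called higher and 2 lower, the same 2 genes. Of all tested genes, 4.55%, 5.94% and 6.09% were called higher and 3.99%, 7.75% and 7.34% lower in #1, #2 and #3. *Adora2b*, an adenosine receptor, was 10.5, 9.10 and 12.24 CPM in LL2 WT, and 1.23 to 2.21 CPM over the 9 samples of the clones. All those samples lay below every LL2 WT and *NRF2* KO sample (5.65 to 8.07 CPM). The log2 fold change was −2.69, −2.43 and −2.71 in #1, #2 and #3 (adjusted p = 5.10e-06, 5.41e-06 and 1.99e-06, limma) and −0.63 (adjusted p = 0.307) in *NRF2* KO. So in the clones the transcript of the adenosine-forming enzyme was higher and that of this adenosine receptor lower.

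*Cd38*, an ectoenzyme that consumes NAD and can feed an alternative route to adenosine, was 13.97, 9.75 and 24.9 CPM in LL2 WT against 3.50 to 8.50 CPM in the clones. The samples did not overlap. Its log2 fold change was −1.48, −1.32 and −1.48 (adjusted p = 0.0191, 0.0250 and 0.0139, limma), against −0.27 (adjusted p = 0.858) in *NRF2* KO, where replicate 3 reached 21.5 CPM. The *Cd38* calls were lost without LL2 WT replicate 3 in each clone (adjusted p = 0.0802, 0.107 and 0.0608), without replicate 1 in each clone (0.0528, 0.0829 and 0.0556), without replicate 2 in #1 and #2 (0.0924 and 0.0702), and without LL2 WT replicate 1 in #2 (0.0523). *Cd38* was highest in replicate 3 of every line, and with replicate number in the model it stayed called in each clone. In *NRF2* KO 0 of the 8 adenosine genes were called by limma (0.464% of all genes were), and 2 had an unadjusted p under 0.05 (11.2% of all genes). The median log2 fold change of the 8 genes was 0.17, −0.45 and −0.68 in #1, #2 and #3, beside 0.11, 0.03 and 0.02 over all tested genes.

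No member was called between any 2 *KEAP1* KO clones by limma, and without replicate number in the model none passed the adjusted p in those 3 comparisons. With replicate number in the model, *Cd276* (−0.38, adjusted p = 0.00519, limma) and *Nectin2* (−0.63, adjusted p = 0.0348) passed it in #3 against #1. Both stayed under the fold threshold. Between #2 and #1, #3 and #1, and #3 and #2, 4.58%, 4.63% and 0.485% of all genes were called, and 0, 1 and 1 members had an unadjusted p under 0.05 (24.1%, 25.8% and 8.22% of all genes). For *Nt5e* the difference of #2 from #1 was 0.42 (95% interval −0.22 to 1.07), and for *Cd80* the difference of #3 from #1 was 0.46 (−0.39 to 1.302), so differences of about this size between clones remain possible.

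By mean CPM, *Nt5e* ran from *KEAP1* KO #2 (12.18 ± 2.39) and #3 (11.96 ± 3.36) to #1 (8.97 ± 0.614), *NRF2* KO (0.614 ± 0.314) and LL2 WT (0.347 ± 0.0684), and the samples of #2 and #3, and those of *NRF2* KO and LL2 WT, overlapped. *Cd80* ran from #3 (5.18 ± 0.592) to #2 (4.22 ± 0.219), #1 (3.74 ± 0.386), *NRF2* KO (1.95 ± 1.29) and LL2 WT (1.61 ± 0.963), and only #3 and #2 were separate neighbours. For *Nectin2* the order was turned around, from LL2 WT (5.39 ± 2.24) through *NRF2* KO (3.68 ± 1.89) to #1 (2.61 ± 0.898), #2 (2.04 ± 0.917) and #3 (1.67 ± 0.642), and every neighbour overlapped.

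Replicate 3 was the highest sample of its line in all 5 lines for *Cd274*, *Cd276*, *Pvr* and *Nectin2*, which held for 20.5% of all tested genes, and in 4 of 5 for *Cd47* and *Nt5e*. So 6 of 9 members had it highest in at least 4 lines, against 36.8% of all genes. Replicate 3 exceeded the mean of replicates 1 and 2 by 0.77 to 1.09 on the log2 scale for *Nectin2* and by 0.32 to 1.00 for *Pvr*, beside a median of 0.02 to 0.16 over all genes. This offset was of the same size as the differences of *Pvr* between lines, and it was present in LL2 WT as well as in the clones. Within replicates 1 and 2 the *Nt5e* difference from LL2 WT was 4.48, 4.74 and 4.64 in #1, #2 and #3, and within replicate 3 it was 4.10, 4.84 and 4.92. For *Nectin2* these were −0.94, −1.39 and −1.59 against −1.04, −1.27 and −1.63, and for *Pvr* 0.47, 0.90 and 0.96 against 0.31, 0.21 and 0.57.

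**Figure D3:**
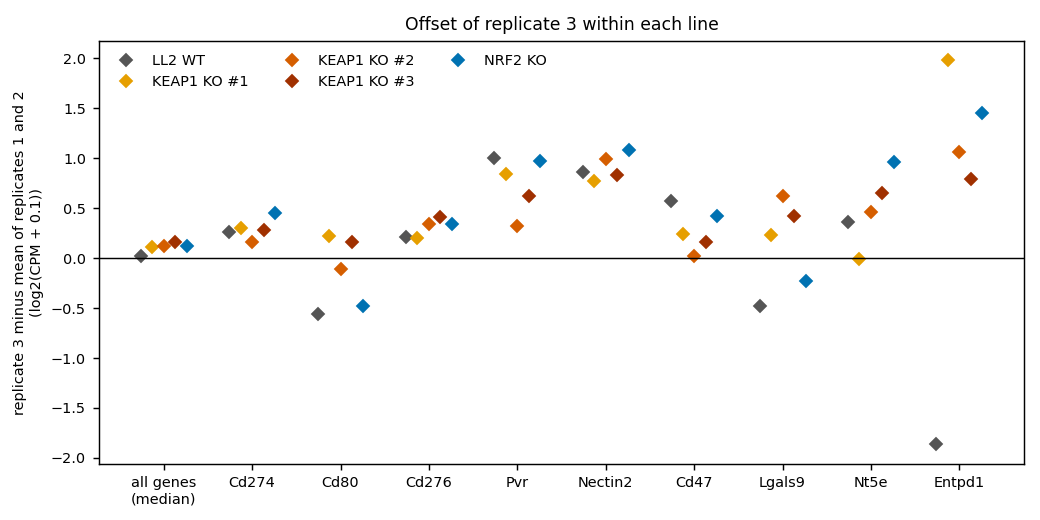
Replicate 3 minus the mean of replicates 1 and 2 on the log2(CPM + 0.1) scale (y axis) for the median of all tested genes and each checkpoint ligand gene (x axis), with 1 point per line. *Nectin2* lay at 0.77 to 1.09 and *Pvr* at 0.32 to 1.00 in all 5 lines, above the median gene at 0.02 to 0.16.

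Levels of different genes were compared per length, as mean CPM per kilobase of the median annotated transcript. In LL2 WT this was 73.1 for *Cd47*, 15.7 for *Cd276*, 6.34 for *Pvr*, 4.49 for *Lgals9*, 2.297 for *Nectin2*, 0.949 for *Cd80*, 0.796 for *Entpd1*, 0.277 for *Cd274* and 0.0867 for *Nt5e*. *Nt5e* thus had the lowest level per kilobase of the tested members in the parental line. In *KEAP1* KO #1, #2 and #3 it had 2.25, 3.05 and 2.99 CPM per kilobase, above *Nectin2* (1.12, 0.868 and 0.711) and *Cd274* (0.403, 0.529 and 0.389). With the longest transcript *Cd47* and *Cd276* came to 17.7 and 7.89 CPM per kilobase in LL2 WT, so these scales are approximate.

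Of 10 receptors to which the members bind, only *Tigit*, *Havcr2* and *Rgmb* passed the filter. *Pdcd1*, *Ctla4*, *Cd96* and *Sirpa* were at 0 in all LL2 WT and *NRF2* KO samples, and none of them exceeded 0.145 CPM anywhere. *Havcr2*, the gene of the galectin-9 receptor TIM-3, was 1.04, 2.22 and 0.506 CPM in the parental LL2 WT samples, 2.11, 4.99 and 4.77 CPM in *KEAP1* KO #1, 23.1, 23.7 and 15.2 CPM in #2, and 26.9, 25.8 and 18.9 CPM in #3. The #2 and #3 samples lay far above LL2 WT and #1 overlapped it. The log2 fold change was 1.70 (adjusted p = 0.0367, limma), 4.12 (9.75e-05) and 4.34 (5.77e-05), and 0.41 (0.837) in *NRF2* KO. In #1 leaving out LL2 WT replicate 1 ended the call (adjusted p = 0.0861), as did leaving out LL2 WT replicate 3 (0.144) or replicate 2 (0.133) or 3 (0.104) of the clone. This *Havcr2* call was also lost with CPM rescaled by the median ratio (1.60, adjusted p = 0.0553, limma), with quantile normalization (1.71, 0.0580) and with replicates 1 and 2 alone (1.05, 0.203).

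*Tigit*, the gene of a receptor for CD155 and CD112, was 6.56 to 7.07 CPM in LL2 WT against 5.599 to 7.83 CPM in *NRF2* KO. It was 6.53, 6.46 and 11.4 CPM in #1, 27.6, 23.9 and 47.6 CPM in #2, and 22.3, 21.9 and 37.3 CPM in #3. The change was called in #2 (2.19, adjusted p = 0.000102, limma) and #3 (1.92, 0.000258) and not in #1 (0.19, adjusted p = 0.680), and #2 and #3 each differed from #1 (2.00, adjusted p = 0.000765, and 1.73, adjusted p = 0.00204). *Havcr2* also differed from #1 in #2 (2.42, adjusted p = 0.0119) and #3 (2.64, adjusted p = 0.00670). Both receptors are best known from lymphocytes and myeloid cells. *Ptprc* stayed at or under 0.192 CPM and *Adgre1* at 0 in these samples. *Cd68* was called in the same 2 clones, and in #1 its samples also lay above those of LL2 WT, without a call. The part of *Cd68* in the result was not tested.

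*Rgmb*, which binds PD-L2, fell from 35.9, 35.1 and 56.1 CPM in LL2 WT to 17.6 to 24.4 CPM in *KEAP1* KO #1 and 15.9 to 17.8 CPM in #2 (log2 fold change −1.03 and −1.28, adjusted p = 0.00145 and 0.000181, limma). In #3 it was 20.7 to 23.7 CPM, which is not called (−0.91, adjusted p = 0.00200), and all samples of the 3 clones lay below LL2 WT. In #1, where the fold lies at the threshold, the call was lost without LL2 WT replicate 3 (−0.81 on the log2 scale) or replicate 1 (−0.93) or 2 (−0.99) of the clone, with replicates 1 and 2 alone (−0.95) and at a pseudocount of 1 CPM (−0.9989), and in #3 *Rgmb* was called without LL2 WT replicate 1 (−1.01) or 2 (−1.03).

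Of 12 genes that regulate PD-L1 or CD47, all were tested and only *Ifngr1*, a chain of the interferon-gamma receptor, was called. It was 27.8, 23.5 and 42.2 CPM in LL2 WT, 14.1 to 17.1 CPM in *KEAP1* KO #1, 10.5 to 12.5 CPM in #2, 10.8 to 13.8 CPM in #3 and 18.7 to 30.1 CPM in *NRF2* KO. Every sample of the clones lay below every LL2 WT sample. It was called in #2 (−1.41, adjusted p = 0.000281, limma) and #3 (−1.28, 0.000555), where 7.75% and 7.34% of all genes were called lower. In #1 it was −0.99, just under the fold threshold (adjusted p = 0.00491), and was called without LL2 WT replicate 1 (−1.05) or 2 (−1.18) or replicate 3 of the clone (−1.08), with CPM rescaled (−1.099) and with quantile normalization (−1.11).

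Of 16 other checkpoint ligands, 8 were tested. Against LL2 WT, 1 was called higher in #1 (4.55% of all genes were), and 1 lower in each of #2 and #3 (7.75% and 7.34%). *Icosl*, the gene of the ligand of ICOS, was called against LL2 WT in *KEAP1* KO #1 alone of the clones, at a fold on the threshold (1.00, adjusted p = 0.00661, limma). It was 1.93 to 2.53 CPM in LL2 WT and 4.26 to 5.01 CPM in #1. The call was lost without LL2 WT replicate 2 (0.88) or replicate 2 (0.96) or 3 (0.97) of the clone. It was also lost at pseudocounts of 1 and 0.5 CPM (0.79 and 0.89), and with CPM rescaled by the median ratio (0.90). In #2 and #3 the *Icosl* change was 0.70 and 0.63 (adjusted p = 0.0311 and 0.0465). All samples of the clones (3.31 to 5.01 CPM) lay above every LL2 WT and every *NRF2* KO sample (1.41 to 2.44 CPM in *NRF2* KO). The clone mean was called higher against *NRF2* KO. *Tnfrsf14*, the gene of HVEM, which binds the inhibitory receptor BTLA, fell in #2 (−1.69, adjusted p = 0.00504) and #3 (−1.72, 0.00450), from 2.33, 1.60 and 4.06 CPM in LL2 WT to 0.461 to 1.04 CPM. In *KEAP1* KO #1 it was −0.72 and in *NRF2* KO −0.82 (adjusted p = 0.195 and 0.452), neither of them called.

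**Figure D4:**
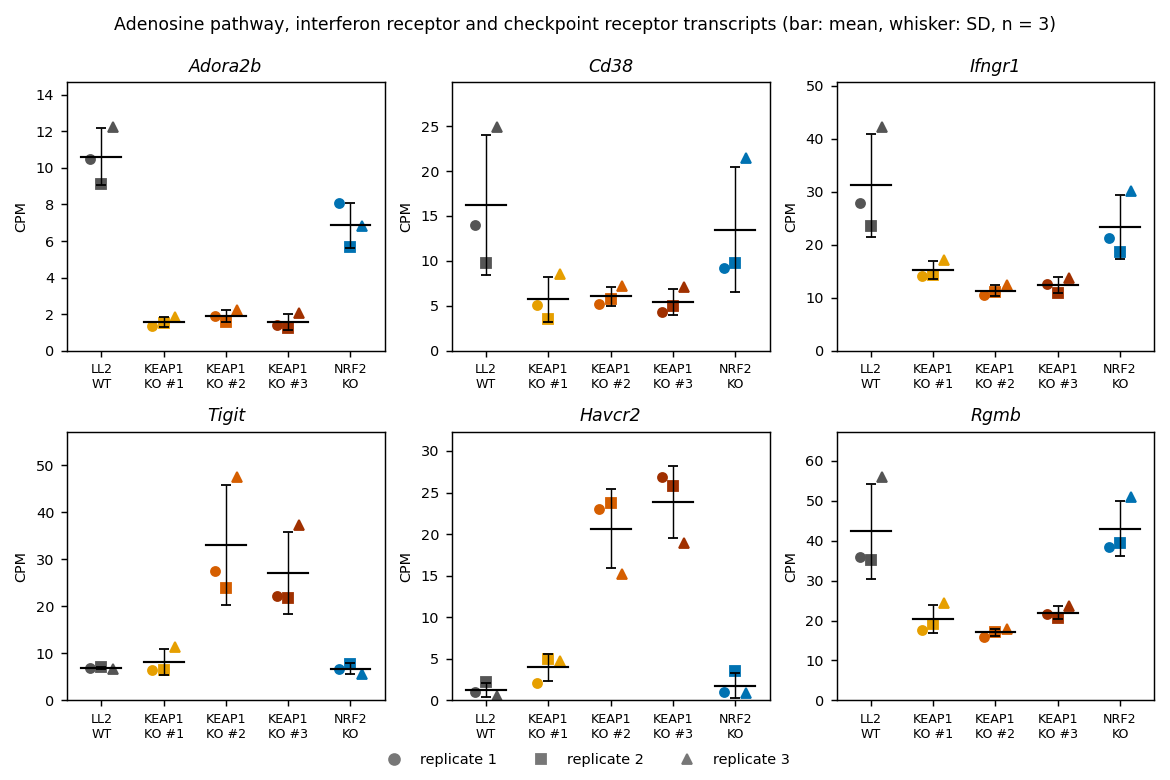
CPM (y axis, linear from 0) of *Adora2b*, *Cd38*, *Ifngr1*, *Tigit*, *Havcr2* and *Rgmb* in the 5 lines (x axis). Symbols are replicates 1 to 3, the bar is the mean and the whisker the SD (n = 3). *Adora2b* lay at 1.23 to 2.21 CPM in the *KEAP1* KO clones and at 9.10 to 12.24 CPM in LL2 WT.

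The genes whose pattern over the 15 samples was closest to that of each called member were found by the root mean square difference of the centred log2(CPM + 0.1) values, among 11675 genes. They were *Prkg1* (0.401), *Sema3c* (0.454) and *Foxq1* (0.468) for *Nt5e*. *Sema3c* had a mean of 0.302 CPM in LL2 WT against 9.53, 9.87 and 12.8 CPM in the clones. For *Cd80* they were *Tnfrsf23* (0.301), *Abcb1b* (0.302) and *Frrs1* (0.346), and for *Nectin2* they were *Tbc1d16* (0.188), *Sema4c* (0.191) and *Thra* (0.222). *Sema4c* had a mean of 22.5 CPM in LL2 WT, 9.56, 7.09 and 7.18 CPM in the clones and 15.4 CPM in *NRF2* KO.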

How the data were processed

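RNA of 15 samples of cultured LL2 cells was sequenced after poly-A selection. Per the methods and labels, the authors made FASTQ files with bcl2fastq (1.9.0) and quantified reads with kallisto against mouse cDNA, and deposited 1 table of CPM per gene symbol. The methods name GRCm38.p6 and the labels GRCm39, and the step from transcripts to symbols and any strand setting are not given in the sources used here. CPM were fractional, so reads could not be recovered and the depth per sample is unknown. At the stated average depth of 30 M reads, 0.1 CPM is 3 reads. Rows without a symbol (0.0214 to 0.0491% of CPM) were left out.

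Here, genes whose values added up to 3 CPM or more across the 15 samples (14652 of 35880) were fitted with limma (3.58.1, R 4.3.3) on log2(CPM + 0.1), with a mean per line, trended empirical Bayes and Benjamini-Hochberg adjustment over all tested genes. Each knockout line was compared with LL2 WT, the mean of the 3 *KEAP1* KO clones with LL2 WT and with *NRF2* KO, and the clones with each other. The code was tested on simulated data. An exact permutation test of 3 against 3 samples cannot go below p = 0.1 and was not used. Alternatives were other pseudocounts, filters, scalings and samples in the model, a replicate block, replicate 3 as a batch, each sample left out, and, chosen after seeing the data, replicates 1 and 2 alone.

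The members and lists were chosen with earlier results of these data known. Named were all members, up to 4 genes per related list (called against LL2 WT in at least 1 line, at a mean of at least 1 CPM in 1 line, by the largest change), the 3 genes most like each called member, the targeted genes with *Nqo1*, and the marker lists. Marker genes named with values were chosen after these were seen. Positions and lengths are from GENCODE on GRCm38, and promoters from RefSeq on GRCm38.p6. Words of 31 bases shared between genes were counted over annotated transcripts. Tables were handled in Python 3.11.15 with pandas 2.3.3, and plots drawn with matplotlib 3.10.9.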

Additional observations from a re-analysis of the deposited data

How the results depend on the processing

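*Nt5e* stayed called in every *KEAP1* KO clone under every alternative, with log2 fold changes of 2.89 to 4.67, 3.28 to 5.10 and 3.24 to 5.05 in #1, #2 and #3. Of 1484 values of members under alternatives, 1401 kept direction and side of the threshold, 28 lost and 5 gained a call and 50 changed sign. The cause of these changes was not tested. Unknown depth, 1 clone per knockout line and 3 samples per line limit the precision, most for members near 1 CPM.

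The replicate numbers gave a median correlation of deviations of 0.276 over 30 same-number pairs (22 over 0.1) and −0.192 over 60 others. Pairs of replicate 3 lay at 0.422 to 0.631, those of replicate 2 at 0.126 to 0.529 and those of replicate 1 at −0.0221 to 0.278, and 5, 5 and 1 of 5 samples correlated best with their own number, a hint from the data and not the design, so the pairing was kept as an alternative. The replicate block changed no member's call, and it lowered the adjusted p for *Pvr* (0.0440, 0.00324 and 0.000832 in #1, #2 and #3, limma) and *Nectin2* (0.00223, 0.000173 and 5.04e-05), in both cases at the same folds. With it, *Cd274* in #1 (adjusted p = 0.0455, limma) and the clone mean of *Cd276* against LL2 WT (0.0196) also passed the adjusted p. Their folds (0.50 and −0.21) stayed under the threshold. Against LL2 WT it gave 1597, 2288 and 2270 called genes for *KEAP1* KO #1, #2 and #3 and 179 for *NRF2* KO, with 135 between #3 and #2, beside 1251, 2006, 1967, 68 and 71 without it.

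At a pseudocount of 1 CPM, the called genes numbered 784, 1275 and 1303 for *KEAP1* KO #1, #2 and #3, 44 for *NRF2* KO, 1048 and 804 for the clone mean against LL2 WT and *NRF2* KO, and 384 and 394 for #2 and #3 against #1 (main counts 1857, 1457, 671 and 679 for these last 4). For *NRF2* KO the count was 38 with a mean of at least 1 CPM, 4 with only the lines compared, 173 with replicate 3 as a batch and 40 with replicates 1 and 2 alone. Between #3 and #2 it was 39 with only the lines compared and 141 with the batch. Members called fell to 1 in #1 under a pseudocount of 1 CPM, no filter, only the lines compared and replicates 1 and 2 alone, and to 1 for the clone mean against *NRF2* KO under the first and last of these.

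Signs turned with replicates 1 and 2 alone for *Cd47* in #1 (0.11) and between #3 and #2 (−0.0028), *Lgals9* in #3 (−0.29), and *Entpd1* in #2 (−0.23), #3 (−0.31), *NRF2* KO (−0.57) and the clone mean against LL2 WT (−0.89, and −0.15 at a pseudocount of 0.01 CPM). With quantile normalization they turned for *Cd47* in #2 (−0.0084) and the clone mean (−0.040), *Cd276* between #2 and #1 (0.0053, and 0.023 with CPM rescaled) and *Cd274* between #3 and #1 (0.069, and 0.032 rescaled). Rescaling moved the median of all genes in #1 from 0.11 to 0.01.

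Leaving out 1 sample at a time gave 1 to 2, 1 to 3 and 1 to 3 members called in #1, #2 and the clone mean against *NRF2* KO, and 29 to 87, 441 to 682 and 42 to 62 genes called in *NRF2* KO, #2 against #1 and #3 against #2. Sign turned in #1 for *Cd276* (−0.12 to 0.012), *Cd47* (−0.11 to 0.19), *Lgals9* (−0.65 to 0.11) and *Entpd1* (−1.56 to 0.52). In #3 it turned for *Lgals9* (−0.15 to 0.11) and *Entpd1* (−0.041 to 1.42). In *NRF2* KO it turned for *Cd274* (−0.056 to 0.26), *Cd80* (−0.26 to 0.65), *Pvr* (−0.53 to 0.13), *Cd47* (−0.29 to 0.035) and *Entpd1* (−0.084 to 0.88). For the clone mean against LL2 WT it turned for *Cd47* (−0.012 to 0.28) and *Entpd1* (−0.46 to 0.62), and against *NRF2* KO for *Cd276* (−0.12 to 0.062) and *Entpd1* (−0.66 to 0.10). Between #2 and #1 it turned for *Cd276* (−0.18 to 0.013), between #3 and #1 for *Cd274* (−0.15 to 0.11) and *Lgals9* (−0.10 to 0.66), and between #3 and #2 for *Pvr* (−0.049 to 0.27), *Nectin2* (−0.53 to 0.077), *Cd47* (−0.0088 to 0.086), *Nt5e* (−0.26 to 0.11) and *Entpd1* (−0.74 to 0.68).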
